A study of Homo sapiens with 2 samples.

Results

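Described here are 5 of the 12405 genes compared: NTS, SCG2, UCHL1 and ENO2, which neuroendocrine cells express, and REST, a repressor of neuronal and secretory genes. Members were the loci of the deposited table whose gene name, split at commas, was one of these symbols. This gave 6 of 19217 loci: 1 each for NTS, UCHL1, ENO2 and REST, and 2 for SCG2. SBC5 is an established cell line of small cell lung cancer. Polyadenylated RNA was sequenced from 1 library of parental SBC5 cells and 1 library of cisplatin-resistant SBC5 cells (CPr), both grown in RPMI 1640 medium with fetal bovine serum. Resistance was selected in steps of 1, 2, 4 and 20 µg/ml cisplatin, a DNA-crosslinking platinum compound. With 1 library per group there was no replicate and no test, so each difference describes these 2 libraries, and whether the resistant cells are 1 clone or a mixed population is not given in the sources used here. The genes were chosen by their FPKM values in these same libraries, so those values are a description.

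Neuroendocrine cells store peptide hormones in dense-core granules and release them on demand. A precursor protein is packed into the granule, cut by convertases at pairs of basic residues, trimmed by carboxypeptidases and often amidated. Small cell lung cancer commonly shows such features, and its cells are sorted into neuroendocrine and non-neuroendocrine forms by granins, synaptic vesicle proteins and lineage factors. REST, a zinc finger repressor, keeps many neuronal and secretory genes off in other cells by recruiting corepressor complexes to an element called RE1.

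NTS encodes the precursor of neurotensin and of neuromedin N, and SCG2 encodes secretogranin II, a granin that is the precursor of secretoneurin. The stretches below show the coding bases between neighbouring pairs of Lys and Arg codons, with those pairs in capitals, because these are the peptides whose messages differed most between the libraries. They were read from GENCODE release 29 transcripts on GRCh38. The coding sequence of NTS holds 170 codons and 3 such pairs, which enclose 6 codons at chr12:85882283-85882312 and 13 codons at chr12:85882307-85882357, both in exon 4 on the plus strand. These lengths are those of neuromedin N and neurotensin. The coding sequence of SCG2 holds 617 codons and 7 such pairs, and the stretch of 33 codons at chr2:223598635-223598745, in exon 2 on the minus strand, has the length of secretoneurin.
NTS, 6 codons between pairs: AAGAGAaaaattccttatattctgAAACGG
NTS, 13 codons between pairs: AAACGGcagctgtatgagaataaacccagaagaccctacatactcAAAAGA
SCG2, 33 codons between pairs: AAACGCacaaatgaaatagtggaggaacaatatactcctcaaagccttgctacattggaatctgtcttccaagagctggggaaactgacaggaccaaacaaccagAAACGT

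Neurotensin message was far more abundant in the resistant library. NTS had 1.41 FPKM in parental cells and 33.0 FPKM in resistant cells, where FPKM scales fragments for locus length and for the size of the library. This is a 23.4-fold ratio of FPKM, and a log2 ratio of 3.82 once 1 FPKM was added to each value, as for all log2 ratios below. Genes at or above 1 on this scale are called 2-fold higher, and those at or below -1 lower, and 3.28% of all genes were higher by this rule and 2.70% lower. By it 1 of the 5 genes described was higher and 1 lower, and since they were chosen on this contrast nothing is read from that count. NTS ranked 6 from the highest log2 ratio among all genes. In the parental library its level lay at percentile 4.81 of all genes, and in the resistant library at percentile 73.5. For 2534 genes the mean level over the 2 libraries lay within 0.5 of that of NTS on the log2 scale. Of these, 95% had log2 ratios between -1.03 and 1.14, and 1 had a log2 ratio as high as that of NTS. That mean lies above the parental level of NTS, so the range is not that of genes as low in parental cells. NTS was chosen on this contrast, so nothing is read from its place among them. More cells with the message and more message per cell cannot be told apart in such bulk RNA. NTS lies at chr12:85874295-85882992 on the plus strand (GENCODE release 29), a protein-coding gene whose longest coding transcript has 4 exons.

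SCG2 was lower in both of its loci. The main locus, on the minus strand, was at 108.7 FPKM in the parental library and at 20.1 FPKM in the resistant one, a 5.41-fold ratio and a log2 ratio of -2.38. It ranked 24 from the lowest log2 ratio, and its level lay at percentile 92.1 in the parental library and 60.5 in the resistant one. Of 1640 genes of like level 1 had a log2 ratio as low, and since SCG2 was chosen on this contrast nothing is read from that. The second locus stood in a part of the table without a strand and had 2.01 and 0.133 FPKM, a log2 ratio of -1.41. Once divided by the relative worth of 1 read in the libraries (0.996, resistant over parental), its ratio was that of 1 read to 15, within a relative tolerance of 2e-05. The locus may thus rest on few reads, though larger counts in the same proportion would give the same ratio. SCG2 lies at chr2:223596940-223602503 on the minus strand and has 2 exons.

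**Figure D1:**
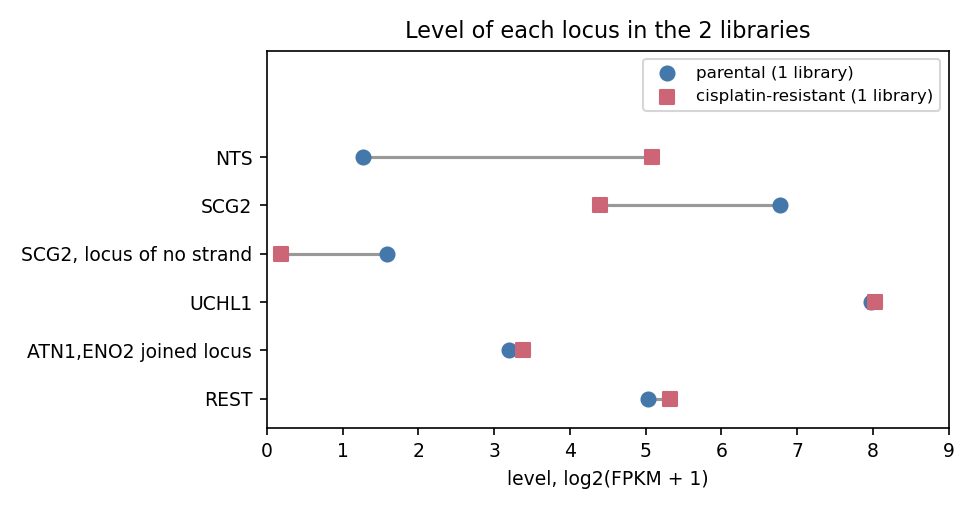
Level of each of the 6 loci as log2(FPKM + 1), with a circle for the parental library and a square for the resistant library (1 library each). NTS is far higher and both SCG2 loci are lower in the resistant library, while UCHL1, the joined ATN1,ENO2 locus and REST have nearly equal values.

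UCHL1, REST and the joined ENO2 locus lay within 2-fold. UCHL1, the ubiquitin hydrolase also known as PGP9.5 and used as a neuroendocrine stain, had 251 FPKM in parental cells and 259 FPKM in resistant cells (log2 ratio 0.05, and -0.04 after scaling to equal sums). It was the most abundant of the 5 genes in both libraries, at percentiles 97.1 and 97.5 of all genes. REST had 31.8 and 39.1 FPKM (log2 ratio 0.29), at percentiles 71.6 and 77.1 of all genes, and 181 of 1968 genes of like level had a log2 ratio at least as high. UCHL1 lies at chr4:41256413-41268455 and REST at chr4:56907876-56966678, both on the plus strand. The antisense gene UCHL1-AS1 (chr4:41220074-41256727, minus strand) overlaps the start of UCHL1, and whether the counting used strand is not given in the sources used here.

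The value under the name of ENO2, the neuron-specific enolase of glycolysis, cannot be assigned to that gene alone. Its locus joined 2 symbols, ATN1 and ENO2, and had 8.18 FPKM in parental cells and 9.40 FPKM in resistant cells (log2 ratio 0.18). Both genes are annotated on the plus strand, ENO2 at chr12:6913745-6923698 and ATN1 at chr12:6924463-6942321. The joined locus stood in the minus part of the chromosome, and each of the 5 loci before it and the 5 after it is annotated on the minus strand. ATN1, which encodes a transcriptional corepressor, had a locus of its own in the plus part, with 50.02 and 54.4 FPKM (0.12). Whether the joined locus holds ENO2 message, antisense RNA or both was not tested.

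**Figure D2:**
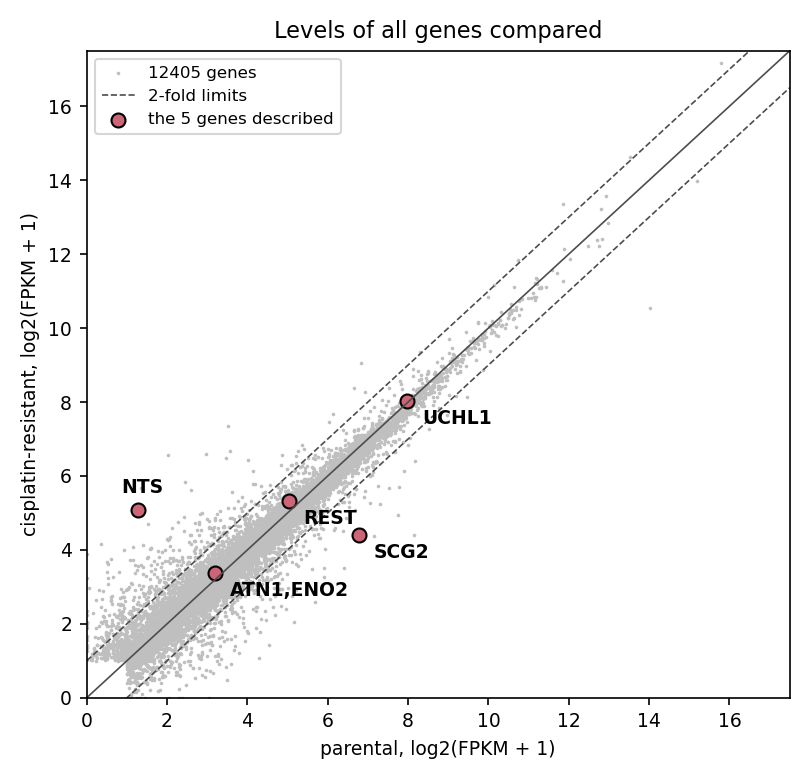
Level of each of the 12405 genes in the parental (x axis) and resistant (y axis) library as log2(FPKM + 1), with dashed lines at 2-fold. NTS lies far above the upper line and SCG2 far below the lower line, and the other 3 lie near the diagonal.

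The order of the 5 levels differed between the libraries. In the parental library it ran UCHL1, SCG2, REST, the ENO2 locus and NTS, and in the resistant library UCHL1, REST, NTS, SCG2 and the ENO2 locus. SCG2 exceeded NTS 77.0-fold in FPKM in parental cells and was 0.609 times NTS in the resistant library. Without replicates the spread of each level is unknown, so neighbours in these orders cannot be called different. The genes closest to each member in the pair of log2(FPKM + 1) values, over the 2 libraries, were named as a description. For NTS they were MYOF (1.86 and 24.9 FPKM), which encodes a membrane-repair ferlin, SEMA3D (1.54 and 49.7 FPKM), a secreted semaphorin, and SLC16A8 (1.65 and 16.4 FPKM), a lactate transporter. The likeness of SLC16A8 rests on a locus of no strand, since its log2 ratio was 2.72 there and 0.71 in its locus with a strand. For SCG2 they were RGS5 (114.7 and 22.9 FPKM) and RGS4 (141.9 and 19.6 FPKM), which both shorten G protein signalling, and HDGFRP3 (82.4 and 22.0 FPKM). Those of UCHL1 were PTTG1, ARPC3 and PHF19, those of REST CABYR, CCNL2 and MARVELD1, and those of the ENO2 locus IQCC, ALDH4A1 and CENPI.

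The bases before the start sites are shown for NTS, the member far higher in the resistant library, and, for contrast, for UCHL1 and for the start of REST that held a motif. Each is the 250 bases before a RefSeq start on GRCh38.p14, plus strand, with motif matches in capitals. NTS is at chr12:85874045-85874294, UCHL1 at chr4:41256678-41256927 and REST at chr4:56908660-56908909.
NTS: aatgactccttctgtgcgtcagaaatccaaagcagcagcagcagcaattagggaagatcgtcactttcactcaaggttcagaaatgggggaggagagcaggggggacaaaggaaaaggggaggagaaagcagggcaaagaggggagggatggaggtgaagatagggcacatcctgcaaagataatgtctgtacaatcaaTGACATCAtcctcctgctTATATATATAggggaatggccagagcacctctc
UCHL1: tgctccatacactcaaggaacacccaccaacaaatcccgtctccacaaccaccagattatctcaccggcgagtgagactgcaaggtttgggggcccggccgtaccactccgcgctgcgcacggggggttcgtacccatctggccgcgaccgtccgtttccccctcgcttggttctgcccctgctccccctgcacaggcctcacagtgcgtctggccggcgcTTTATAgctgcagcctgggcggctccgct
REST: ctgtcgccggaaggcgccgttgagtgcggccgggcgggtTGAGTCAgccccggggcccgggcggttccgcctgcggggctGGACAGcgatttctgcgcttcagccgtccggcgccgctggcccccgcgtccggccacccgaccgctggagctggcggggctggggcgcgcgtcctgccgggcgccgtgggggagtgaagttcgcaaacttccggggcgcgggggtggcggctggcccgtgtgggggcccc

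Both strands were searched for the cyclic AMP element TGACGTCA, its variant TGACATCA, the AP-1 site TGANTCA and the left arm of RE1, TTCAGCACC. They were also searched for its right arm, spelled GGACAG, for the TATA box, spelled TATAAA, and for the repeat TATATATA. The NTS bases held TGACATCA from -51 to -44, which 2.37% of 35116 such promoters hold, and 2 overlapping matches of TATATATA from -33 to -24, which 0.533% hold. UCHL1 held TATAAA on the other strand from -29 to -24 (10.7% of promoters). REST held an AP-1 match, TGAGTCA, from -211 to -205 (6.57%) and GGACAG from -170 to -165 (17.2%), and its other start site held none of the motifs. ENO2 held an AP-1 match, TGACTCA, from -94 to -88. None of these starts held TGACGTCA (1.65% of promoters) or TTCAGCACC (0.288%). The NTS bases had 49.2% G and C and 2 CpG pairs, against 64.4% and 20 for UCHL1 and 78.4% and 36 for REST. The median of all such promoters was 58% G and C and 11 CpG pairs. A match describes letters in this window, and binding was not measured.

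AP-1 and CREB factors, which act at such elements, were all 12 measured, and 1 of them passed 2-fold upward. JUN had 5.52 and 13.0 FPKM (log2 ratio 1.11, and 0.78 with a pseudocount of 5), where 3.28% of all genes were higher. Its partner FOS had 5.29 and 3.97 FPKM (-0.34), and CREB1 had 15.7 FPKM in both.

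Among neuropeptide precursors, NTS was the member with the largest log2 ratio. Of 40 listed genes 9 had a locus that passed 1 FPKM in either library. Of the 9, 2 were at least 2-fold higher and none lower, where 3.28% of all genes were higher and 2.70% lower. NTS, 1 of the 2, was chosen on this contrast. The median log2 ratio was 0.02 (-0.02 after scaling to equal sums), against -0.04 over all genes. With a minimum of 5 FPKM in either library 5 members were left and their median was 0.80. The 2 higher members passed that minimum only through the resistant library, so nothing is read from this median. The second higher member was ADM, the precursor of the vasodilator adrenomedullin, with 2.26 and 10.3 FPKM (1.79). NMU, the precursor of neuromedin U, had 9.47 and 17.3 FPKM (0.80). PTHLH, the parathyroid hormone-like hormone of tumour hypercalcaemia, had 152.9 and 172.4 FPKM (0.17), and NMB, the bombesin-like neuromedin B, had 26.7 and 22.1 FPKM (-0.26). The other 31 listed genes had no locus to compare, also without a minimum FPKM, so their levels are unknown.

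The other granins did not share the lower value of SCG2. Of 7 listed granins 4 were measured. None was 2-fold higher and 1, SCG2 itself, was 2-fold lower, where 3.28% of all genes were higher and 2.70% lower. VGF, a precursor of secreted peptides, had 7.12 and 8.01 FPKM (0.15). PCSK1N, the granin-like inhibitor of a prohormone convertase, had 4.52 and 6.60 FPKM (0.46), and CHGB, chromogranin B, had 0.702 and 1.19 FPKM (0.36). The summed level of the 4 was 121 FPKM in parental cells and 35.9 FPKM in resistant cells, most of it SCG2 in both.

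The measured enzymes that turn precursors into peptides lay within 2-fold. None of 8 measured of 12 listed processing genes passed the limit in either direction, where 3.28% of all genes were higher and 2.70% lower. With shares this low, nothing is read from the absence of calls. Of the 8, 6 lay below 0, where 44.4% of all genes lay above 0. Their median was -0.32, against -0.04 over all genes. CPE, the carboxypeptidase of granules, had 21.5 and 15.02 FPKM (-0.49), PAM, the amidating enzyme, 24.8 and 18.9 FPKM (-0.38), and FURIN, a convertase of the Golgi, 38.1 and 28.4 FPKM (-0.41). PCSK4 had 9.33 and 17.1 FPKM (0.81). The convertases PCSK1 and PCSK2 were not among the 8 measured, so nothing is said of their levels.

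Of 4 listed neurotensin receptors 3 were measured. SORT1 (sortilin), which sorts proteins and binds neurotensin, had 45.3 and 42.5 FPKM (-0.09), and its relative SORL1 had 16.01 and 24.9 FPKM (0.61). NTSR1, the high-affinity G protein-coupled receptor, had 8 loci. The plus-strand locus had 3.91 and 3.13 FPKM (-0.25). The other 7 stood without a strand and ranged from 0.801 to 12.03 FPKM in parental and from 0.675 to 2.18 FPKM in resistant cells, with 5 of them lower in the latter. The most abundant of these (12.03 and 2.18 FPKM, -2.04) had the ratio that 2 reads against 11 would give, so it may rest on few reads, and the call of NTSR1 as 2-fold lower depended on it. Of 5 measured peptidases that cut neurotensin 1 passed 2-fold, upward, where 3.28% of all genes were higher. It was MME (neprilysin), with 0.962 and 6.55 FPKM (1.94, and 0.95 with a pseudocount of 5). THOP1 had 42.9 and 42.4 FPKM (-0.02), NLN (neurolysin) 15.7 and 16.2 FPKM (0.04) and PREP 39.6 and 43.03 FPKM (0.12).

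Genes of secretory vesicles and their release had a median log2 ratio near 0. Of 24 measured of 36 listed genes 1 was 2-fold higher and 2 were lower, where 3.28% of all genes were higher and 2.70% lower. The median was 0.06 (-0.01 after scaling to equal sums). PTPRN2, a granule membrane protein, had 1.62 and 4.57 FPKM (1.09), SV2A, a synaptic vesicle glycoprotein, 10.01 and 3.62 FPKM (-1.25), and RAB3C, a GTPase of vesicle release, 11.2 and 4.79 FPKM (-1.08). None of these 3 passed 2-fold with a pseudocount of 5 (0.53, -0.80 and -0.73). SYP, the vesicle protein synaptophysin used in diagnosis, had 8.56 and 8.62 FPKM (0.01), and NCAM1 (CD56), another such marker, had 0.821 and 1.64 FPKM (0.53). Of 11 listed diagnostic markers 4 had a locus, the joined ENO2 locus included.

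Of the 25 genes listed as high in neuroendocrine tumours 14 were measured (median 0.05, and -0.02 after scaling to equal sums). None passed 2-fold in either direction, where 3.28% of all genes were higher and 2.70% lower. With shares this low, nothing is read from the absence of calls. A pseudocount of 0.1 gave 1 higher and 1 lower. BEX1 had 125.5 and 83.4 FPKM (-0.58), and the kinesin KIF1A had 153.6 and 167 FPKM (0.12). Of the 25 listed as high in non-neuroendocrine tumours 13 were measured, 4 were higher and 2 lower, where 3.28% of all genes were higher and 2.70% lower, with a median of 0.48. YAP1, a Hippo pathway coactivator on this list, had 76.6 and 84.7 FPKM (0.14). The higher were MYOF (3.18), AHNAK, a scaffold protein (8.46 and 30.3 FPKM, 1.73), IFITM3, which restricts viral entry (28.0 and 93.9 FPKM, 1.71), and ITGB4, an integrin chain (2.51 and 6.52 FPKM, 1.10, and 0.62 with a pseudocount of 5). The lower were CAV1, the coat protein of caveolae (38.9 and 13.8 FPKM, -1.43), and IFITM2 (21.7 and 10.04 FPKM, -1.04). IFITM2 did not pass 2-fold with a pseudocount of 5 (-0.83) or with its loci summed (-0.91). Some genes of the neuroendocrine list, SYP among them, also stand in other lists here, and the lists were not compared by a test.

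**Figure D3:**
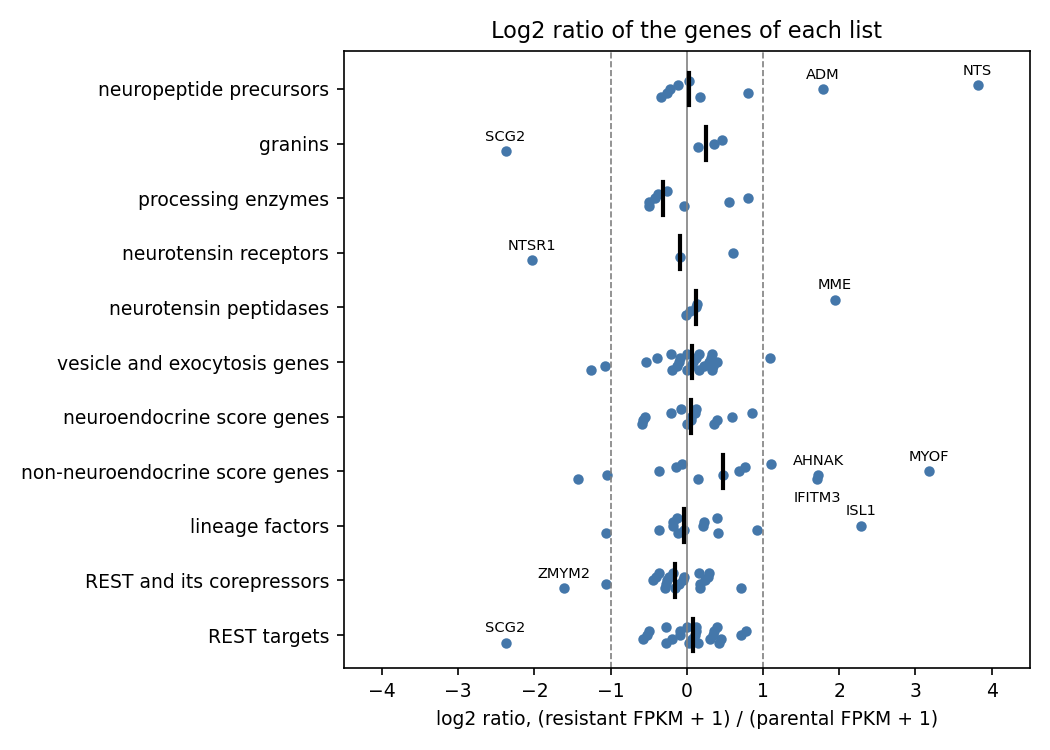
Log2 ratio of each measured gene (circles) in 11 lists, with a black bar at the median of each list and dashed lines at 2-fold. NTS and SCG2 are the outermost genes of their lists, and the medians of all lists lie between -0.32 and 0.48.

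REST, itself 31.8 and 39.1 FPKM, acts through RCOR1 and SIN3A complexes. Of 21 measured genes of REST and its corepressors none was 2-fold higher and 2 were lower. Over all genes 3.28% were higher and 2.70% lower. Of the 21, 14 lay below 0 (median -0.16), where 44.4% of all genes lay above 0 (median -0.04). RCOR1 (CoREST), the scaffold that joins REST to histone-modifying enzymes, had 103.5 and 49.2 FPKM (-1.06). Its relative RCOR2 had 513 and 839 FPKM (0.71), the highest level of the list. ZMYM2, a zinc finger protein found with this complex, had 101.8 and 32.5 FPKM (-1.62). The demethylase KDM1A had 107 and 88.6 FPKM (-0.27), and HDAC1 had 108.8 and 95.8 FPKM (-0.18). Among 10 measured regulators of REST, PRICKLE1, which is tied to its nuclear entry, had 1.24 and 4.16 FPKM (1.20, and 0.55 with a pseudocount of 5). SRRM3, a splicing factor of neuronal microexons, had 7.87 and 3.44 FPKM (-0.998, and -1.17 with a pseudocount of 0.1).

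Listed REST targets lay on both sides of 0. Of 24 measured of 41 listed REST targets none was 2-fold higher in its most abundant locus and 1, SCG2, was lower. Over all genes 3.28% were higher and 2.70% lower. Of the 24 targets, 15 lay above 0 and 9 below (median 0.09), where 44.4% of all genes lay above 0 (median -0.04). TUBB3, a neuronal tubulin, had 119 and 164 FPKM (0.46), NEFH, a neurofilament chain, 76.3 and 62.9 FPKM (-0.27), and GRIA2, a glutamate receptor subunit, 40.6 and 28.5 FPKM (-0.50). STMN2, a growth-associated stathmin, had 8.02 and 10.2 FPKM (0.31) in its plus-strand locus. Its other locus, of no strand, had 1.84 and 14.6 FPKM (2.46), the ratio of 8 reads to 1 once the worth of a read is allowed for, and few reads may lie behind it. With the loci of a name summed, STMN2 had a log2 ratio of 1.25 and was the 1 REST target that was 2-fold higher. With a pseudocount of 0.1, 2 targets were lower.

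Among 13 measured lineage factors and Notch genes 1 was higher and 1 lower, where 3.28% of all genes were higher and 2.70% lower. ISL1, a LIM homeobox factor of endocrine and neuronal cells, had 1.88 and 13.1 FPKM (2.29), and FOXA1, a forkhead factor, had 29.2 and 13.4 FPKM (-1.06, and -0.89 with a pseudocount of 5). SOX2 had 214 and 197 FPKM (-0.12) and DLL3, an inhibitory Notch ligand, 19.3 and 18.9 FPKM (-0.03).

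The relatives of UCHL1 and ENO2 were examined for comparison. UCHL3, the closest ubiquitin hydrolase, had 94.9 and 95.5 FPKM (0.01), and UCHL5, which works at the proteasome, had 178 and 95.5 FPKM (-0.90). The ubiquitin gene UBB had 442 and 430 FPKM (-0.04). Of the other enolases, ENO1 of most tissues had 1563 and 1431 FPKM (-0.13) and ENO3 of muscle 55.5 and 50.2 FPKM (-0.14). Of 19 glycolysis genes 1 passed 2-fold, downward, where 2.70% of all genes were lower. It was ALDOC, the brain aldolase, with 18.97 and 5.81 FPKM (-1.55).

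Markers of other cell types were few. Of 10 haematopoietic markers 2 were measured, of 8 endothelial markers 1, of 10 fibroblast markers 4 and of 8 glial markers 1, and the summed levels in parental and resistant libraries were 28.8 and 17.3, 23.7 and 19.6, 75.5 and 40.7, and 24.8 and 17.9 FPKM in that order. The fibroblast markers went both ways: PDGFRA, a growth factor receptor, was lower (47.95 and 10.1 FPKM, -2.14), COL3A1, a fibrillar collagen chain, was higher (1.18 and 7.51 FPKM, 1.97), and COL1A1 and THY1 lay within 2-fold (0.54 and -0.30). Of the haematopoietic markers, CORO1A had 26.1 and 16.8 FPKM (-0.61). HBB, a haemoglobin chain, was lower at 2.69 and 0.472 FPKM (-1.32), a call it lost with a pseudocount of 5 (-0.49). Their part in the values of NTS and SCG2 was not tested.

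Loci beside SCG2 were lower as well. In the minus part of the chromosome, 2 unnamed loci that stand between FARSB and SCG2 in the table had 64.4 and 10.2 FPKM (-2.54) and 8.35 and 1.67 FPKM (-1.81), and the unnamed locus after SCG2 had 2.24 and 1.05 FPKM (-0.66). Named genes on either side had FPKM values within 2-fold, with FARSB at 110.9 and 94.4 (-0.23) and AP1S3 at 7.85 and 10.6 (0.39). In the part without a strand, 5 of the 10 loci nearest to the second SCG2 locus were 2-fold lower and none higher, and 9 of these 10 had no name. Of all 2729 unnamed loci at 1 FPKM or more, 10.1% were 2-fold lower and 8.39% higher. For REST, none of the 10 nearest loci passed 2-fold. For NTS 2 were higher and 1 lower, where 5.48% of all loci at 1 FPKM or more were higher and 4.27% lower. The gene before it in the plus part of the table, TMTC2 (chr12:82686880-83134870), had 2.38 and 10.99 FPKM (1.83). RASSF9 (chr12:85800697-85836570), on the minus strand, lies between TMTC2 and NTS, so order in the table is not distance. The table does not give the positions of unnamed loci, so whether they belong to SCG2 was not tested.

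**Figure D4:**
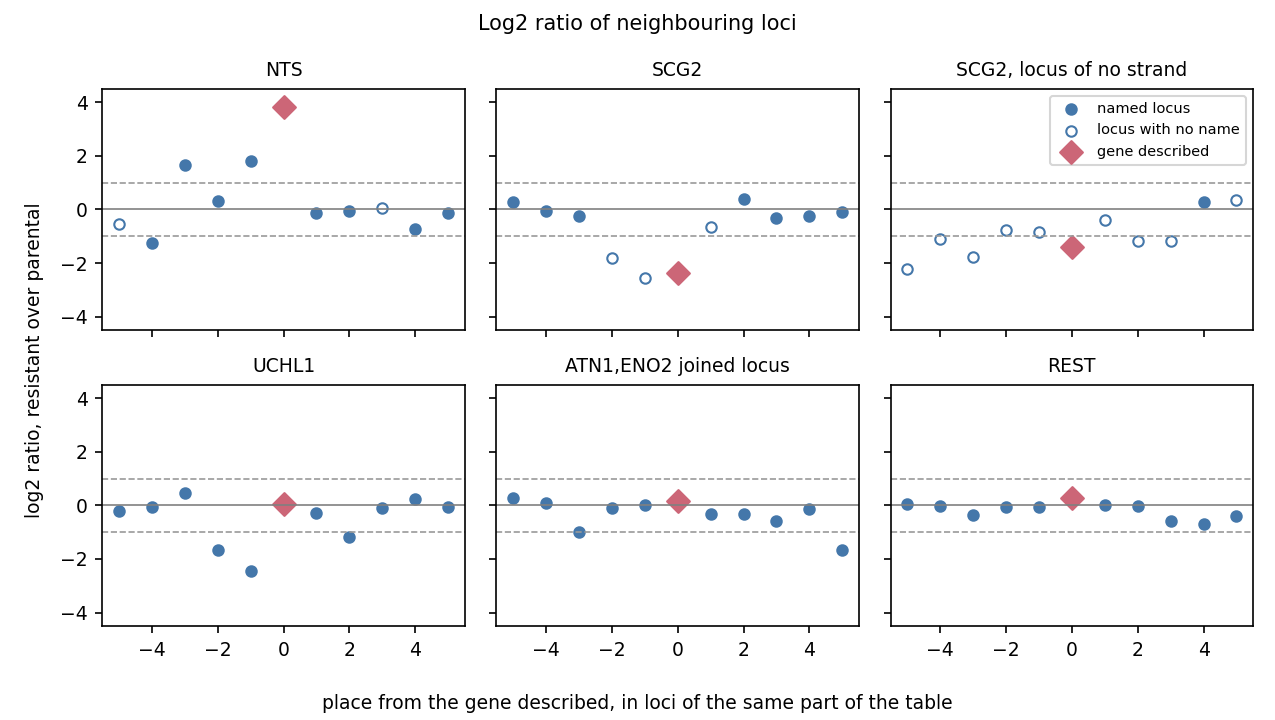
Log2 ratio of the 5 loci before and the 5 loci after each member (x axis: place in the table within the same strand part), with the member as a diamond, named loci as filled circles and unnamed loci as open circles. Unnamed loci beside both SCG2 loci lie mostly below 0, and loci around REST lie between -0.70 and 0.06.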

How the data were processed

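Expression was compared between 1 parental and 1 cisplatin-resistant SBC5 library. Values are FPKM, deposited by the authors with 1 column for each library, per the file headers. TopHat2, without a version, and the build hg38 are named per the submitters' processing notes, and libraries were made with a strand-preserving polyA kit per the labels' protocols. What program and gene models gave the FPKM is not given in the sources used here, and depth is unknown. Columns were matched by sample description, and 0 were left unmatched.

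Gene counts omit 2919 loci with no name and 23 with a date for a name. For each name the locus with the highest mean FPKM was used, and a joined name stood for a symbol without a locus of its own. Comparison was limited to genes reaching 1 FPKM in a library. The log2 ratio divides the resistant by the parental value after adding a pseudocount of 1 to each. A 2-fold rule replaced a test, since 1 library per group allows none. The members and gene lists were chosen with earlier results of these data known. Beside the 5 genes and their partners by role, up to 4 genes past 2-fold per list and direction, and the 3 genes closest in the 2 levels, were named.

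Strand parts were inferred from the order of loci and their annotated strand in GENCODE release 29 (GRCh38). Of 11782 loci in a plus or minus part with an annotated strand, 98.7% lay on it. The parts were fitted to these strands, so this share is no independent check. The relative worth of 1 read came from ratios among 7591 loci under 5 FPKM, of which 52.9% matched a ratio of whole numbers up to 20. Promoters are RefSeq sequences on GRCh38.p14, matched by symbol for 4 of the 5 genes. The comparison was checked on simulated data, with changes of 4-fold or more put only into genes well above the parental level of NTS. That check thus does not cover genes as low as NTS in parental cells. The tools were pandas 2.3.3 and NumPy 2.4.6 under Python 3.11.15, with figures from matplotlib 3.10.9. Alternatives were pseudocounts of 0.1 and 5, no filter, a minimum of 5 FPKM, equal sums, division by the median ratio, summed loci, strand-assigned loci only and a 4-fold limit.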

Additional observations from a re-analysis of the deposited data

How the results depend on the processing

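The directions of NTS, SCG2, REST and the joined ENO2 locus, and their side of the limit, held in all 9 alternatives. For NTS, REST and the joined ENO2 locus, the filters, summed loci, strand-assigned loci and the 4-fold limit left the log2 ratio unchanged. That was fixed in advance, since each had 1 locus, with a strand, that passed both filters. The log2 ratio of NTS ranged from 2.57 (pseudocount of 5) to 4.45 (pseudocount of 0.1), that of SCG2 from -2.46 to -2.18, that of REST from 0.21 to 0.33 and that of the ENO2 locus from 0.10 to 0.22. UCHL1 ranged from -0.04 to 0.09 and was below 0 under scaling to equal sums alone. Over all genes, a pseudocount of 0.1 gave 614 higher, a pseudocount of 5 gave 142 higher and 136 lower, and a 4-fold limit gave 76 higher and 60 lower, against 407 and 335. Higher pseudocounts shrink ratios of low genes by construction. For 72 other named or listed genes, 603 of 643 values kept their side of the limit, 35 no longer passed it, 5 newly passed it and 0 changed direction as called. The 4-fold limit gave many of those that no longer passed. Many of the 603 come from settings that leave the log2 ratio of a gene as it was, such as the filters. No paired analysis was possible because each group has 1 library. Counts are unknown, so the counting error of low values, the parental NTS value included, could not be given.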

Other observations

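Some loci near UCHL1 in the table differed more between the libraries than UCHL1 did, while most of the 10 nearest lay within 2-fold. CHRNA9, a nicotinic acetylcholine receptor subunit at chr4:40335329-40355217, stands next before UCHL1 in the plus part of the table and had 24.7 FPKM in parental cells and 3.74 FPKM in resistant cells (log2 ratio -2.44). The locus before it, LOC101060498, had 8.77 and 2.06 FPKM (-1.68), and TMEM33, a membrane protein gene on the other side of UCHL1, had 254 and 112 FPKM (-1.17). Of the 10 loci nearest to UCHL1 in that order, 3 were 2-fold lower and none higher, where 4.27% of all loci at 1 FPKM or more were lower. These loci were singled out after their values were seen.

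Among genes of the neuronal cytoskeleton and cell adhesion, 12 of 24 listed were measured (median -0.04). Of these 1 was higher and 1 lower, where 3.28% of all genes were higher and 2.70% lower. With the loci of a name summed 2 were higher, STMN2 being the second (1.25). MAP2, which binds neuronal microtubules, had 10.4 and 162.8 FPKM (3.85), a log2 ratio close to that of NTS at a higher level in both libraries. NRCAM, a neuronal adhesion molecule, had 201.8 and 99.1 FPKM (-1.02, and -0.98 after division by the median ratio). MAP1B had 19.1 and 9.16 FPKM (-0.98, and -1.06 after scaling to equal sums).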
